A study of Rattus norvegicus with 6 samples.

Results

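The transforming growth factor beta (TGF-beta) family was examined in primary Leydig cells, the androgen-making cells of the testis, after exposure to exosomes from Sertoli cells. The 46 genes, chosen by name, comprise 13 ligands, 12 receptors, 7 SMADs, 9 secreted or matrix proteins grouped as binding proteins, 1 protease and 4 target genes. Of these, 45 had a probe on the array and 41 were tested, out of 10974 genes tested in all.

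TGF-betas, bone morphogenetic proteins (BMPs), growth and differentiation factors (GDFs) and activins are secreted dimers that bring type II and type I receptor kinases together. The type I receptor then phosphorylates a SMAD, which joins Smad4 and enters the nucleus, where SMADs bind short DNA elements of target genes. Several latent TGF-beta binding proteins hold the ligand in the matrix, and follistatins trap activins. Noggin and gremlin trap BMPs, and Smad7 and Smad6 are feedback inhibitors. In the testis, Sertoli cells secrete inhibin and activin, and Leydig cells carry receptors for several of these ligands.

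Cells of Sprague-Dawley rats were grown in F12/DMEM medium with 10% fetal bovine serum, penicillin and streptomycin at 34 °C and 5% CO2. The exosome group was exposed for 24 h to 5 µg/ml of exosomes released by primary Sertoli cells of the rat, and the untreated group received none; whether it received a vehicle, and the age of the animals, are not given in the sources used here. Each group has 3 samples of total RNA, each on a 1-colour Agilent array. The labels do not say which animal or culture a sample came from. The p-values therefore reflect scatter among 6 arrays, which may be technical.

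Levels are log2 intensities on a scale where 0 is the array's 75th percentile, and differences are exosome minus untreated. Probes well above background made up 67.2% to 72.2% of gene spots on exosome arrays and 72.6% to 75.6% on untreated arrays, and no spot was saturated. Exosome arrays 1 and 2 shared a scan, exosome array 3 was in another, and the 3 untreated arrays were together in a scan of their own, so scan and group cannot be told apart. The median difference over all genes tested was −0.19 on this scale and 0.01 after quantile normalization. It also moved with brightness, at −0.55, −0.23 and 0.13 in the lowest, middle and highest of 3 equal bins of genes by mean level. Of 8 Leydig markers 5 were tested, Lhcgr and Nr5a1 were above background on no array, and the summed level was 74.4 to 88.1 times the 75th percentile on exosome arrays and 75.6 to 84.8 times on untreated arrays. Summed Sertoli markers (7 of 10 tested, Amh and Gata1 above background on no array) stood at 14.9 to 17.1 on exosome arrays against 21.8 to 28.7 on untreated arrays. A sum weights bright markers most, and over the 7 the median difference was 0.16, with 1 higher and 2 lower. The 7 include Inhbb, itself a gene of the family, so this list is not separate from it. Summed peritubular markers (8 of 8 tested) stood at 32.1 to 39.2 on exosome arrays and 46.8 to 49.8 on untreated arrays. Macrophage markers (11 of 11 tested) summed to 42.8 to 48.6 on exosome arrays and 46.1 to 47.7 on untreated arrays, and endothelial markers (6 of 9 tested, Tek above background on no array) to 1.33 to 1.61 and 1.09 to 1.23. Of these 6, however, 2 were higher and 4 lower, with a median difference of −0.62. The part of these marker shifts, of brightness and of scan in the results that follow was not tested. In bulk RNA, fewer cells of a type and less RNA per cell cannot be told apart.

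Of the 41 tested genes, 6 were higher in exosome-treated cells and 13 lower (limma, adjusted p below 0.05), and 22 did not pass the test. Of the 41, 37 were well above background on all 6 arrays, and Nog entered the test through its untreated arrays alone. Over all genes, 14.6% were higher and 29.2% lower, and the family's shares of 14.6% and 31.7% lie near this background. The groups did not overlap for 25 of the 41 genes (61.0%), against 62.0% of all genes. The median difference was −0.35 over the family and −0.19 over all genes; after quantile normalization the medians were −0.02 and 0.01, and 10 genes of the family were higher and 9 lower. Centring on the median of tested probes gave 12 higher and 7 lower. Over all genes, quantile normalization gave 2212 higher and 1766 lower, and centring on the median 2754 and 1856. Ligands gave 2 higher and 4 lower of 12 tested, receptors 2 and 1 of 10, SMADs 1 and 2 of 5, binding proteins 0 and 4 of 9, and target genes 1 and 2 of 4. The 9 binding proteins had a median difference of −0.69, the 12 ligands one of 0.07; no test was made of the difference between roles.

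**Figure D1:**
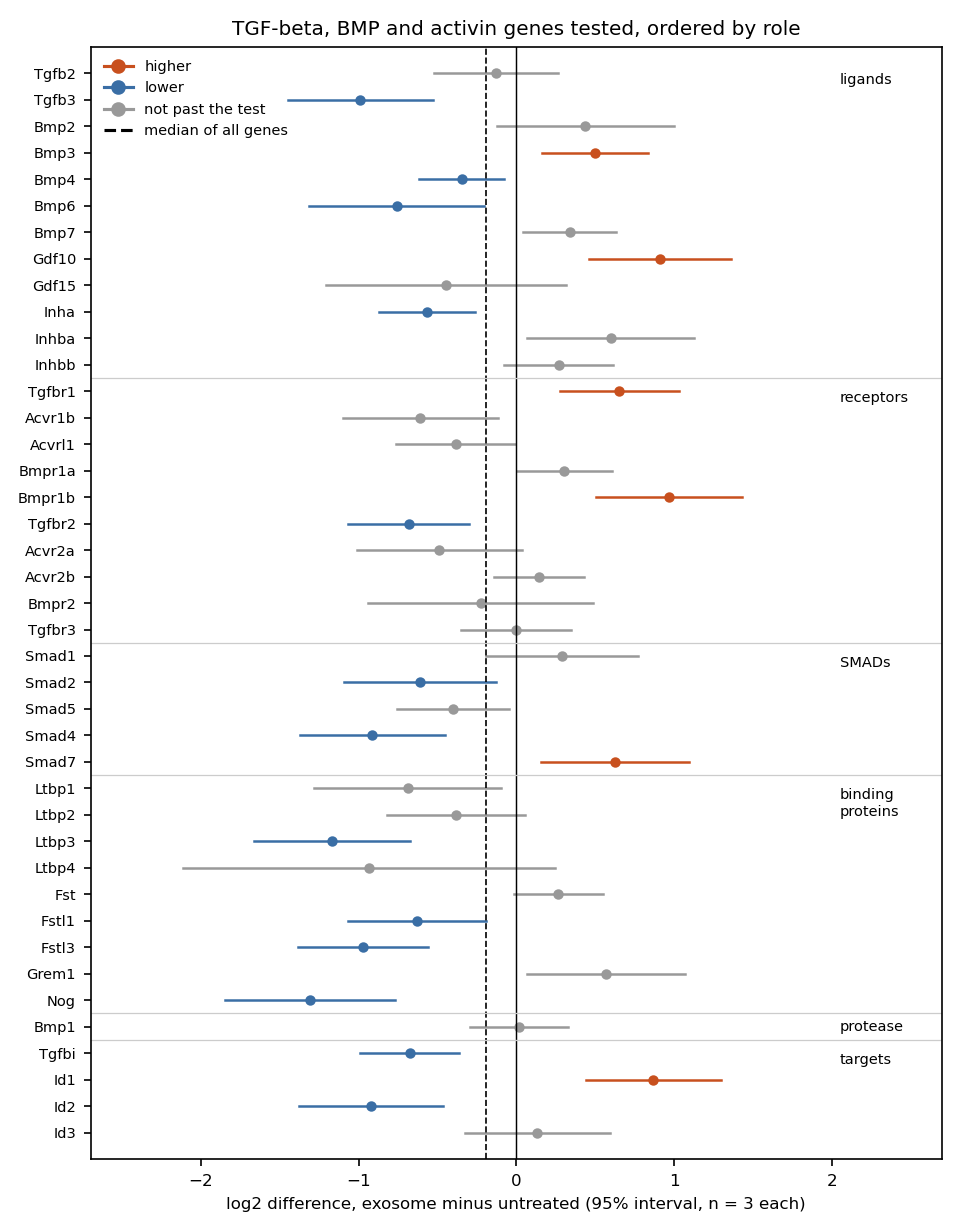
Log2 difference, exosome minus untreated, with its 95% interval (x axis) for the 41 tested genes of the TGF-beta family, grouped by role (y axis); colours mark genes higher, lower or not past the test, the solid line is 0 and the dashed line is the median of all genes at −0.19. Binding proteins lie mostly left of the dashed line, with 0 of 9 higher and 4 of 9 lower, where 29.2% of all genes were lower. The 4 include Nog, tested through its untreated arrays alone, and Fstl1, whose other probe was higher.

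Among the ligands, Tgfb3, a TGF-beta isoform, was lower after exosomes. Its level was −1.04, −0.57 and −1.23 on exosome arrays, against −0.06, −0.01 and 0.19 on untreated arrays. The groups did not overlap, and Tgfb3 fell by 0.99 (SE 0.19, adjusted p = 0.0131). Tgfb2, which signals through the same receptors, differed by −0.13 (SE 0.16, adjusted p = 0.544), and Tgfb1 was not above background on any array.

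BMP and GDF ligands moved in both directions. Gdf10, also called Bmp3b, was at −4.51, −4.87 and −4.71 on exosome arrays and at −5.30, −5.61 and −5.91 on untreated arrays. It was higher by 0.91 (SE 0.19, adjusted p = 0.0145), but it was a dim gene, above background on 3 exosome and 2 untreated arrays, and with normexp background correction the difference was 0.10 (adjusted p = 0.381). Its relative Bmp3, an atypical BMP that opposes other BMPs in bone, was at −3.09, −3.05 and −2.93 on exosome arrays and −3.29, −3.64 and −3.64 on untreated arrays. Bmp3 rose by 0.50 (SE 0.14, adjusted p = 0.0306), and this call too was lost with normexp, at 0.24.

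Bmp4 and Bmp6, ligands of the BMP receptors, were lower. Bmp4 arrays lay close together, at 2.16, 2.28 and 2.08 with exosomes and 2.50, 2.51 and 2.54 without. It fell by 0.35 (SE 0.11, adjusted p = 0.0451), with no overlap. Bmp6 was at −3.28, −2.81 and −3.72 on exosome arrays, against −2.43, −2.48 and −2.62 on untreated arrays, a difference of −0.76 (SE 0.23, adjusted p = 0.0396). Both calls were lost under quantile normalization (−0.39 for Bmp4 and −0.45 for Bmp6) and under centring on the median, where Bmp4 differed by −0.12. Bmp7 (0.34, SE 0.12, adjusted p = 0.0643), Bmp2 (0.44, SE 0.23, adjusted p = 0.169) and Gdf15, a stress-responsive member (−0.45, SE 0.32, adjusted p = 0.286), did not pass the test. The Bmp7 arrays did not overlap, and it passed with quantile normalization at 0.89, but with normexp the difference was −0.0654 (adjusted p = 0.588).

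Inha encodes the alpha subunit that turns activin beta subunits into inhibin, the activin antagonist. It was at 0.25, 0.54 and 0.27 on exosome arrays and at 0.89, 0.88 and 0.97 on untreated arrays. Inha fell by 0.56 (SE 0.13, adjusted p = 0.0176), with every exosome array below every untreated one. The beta A subunit Inhba was at −0.80, −1.59 and −1.49 on exosome arrays, against −1.97, −1.87 and −1.84 on untreated arrays. Its difference of 0.60 (SE 0.22) had an adjusted p of 0.0672, without overlap, and it passed with quantile normalization at 0.78 and with centring on the median at 0.83.

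The beta B subunit Inhbb had 2 probes that gave different values. The brighter one was at 1.44, 1.66 and 1.59 on exosome arrays and 1.45, 1.36 and 1.07 on untreated arrays, a difference of 0.27 (SE 0.14, adjusted p = 0.169). The other was at 1.28, 0.35 and 1.98 on exosome arrays against −0.49, −1.27 and −1.65 on untreated arrays. This probe was higher by 2.34 (SE 0.46, adjusted p = 0.0135), 5.05-fold, the largest difference of any tested probe of the family.

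The 2 higher receptors are type I kinases and the 1 lower receptor is of type II. Tgfbr1, the type I receptor kinase for TGF-beta (also called ALK5), was at 0.11, −0.39 and −0.10 on exosome arrays and −0.67, −0.81 and −0.86 on untreated arrays. It rose by 0.65 (SE 0.16, adjusted p = 0.0207), without overlap. Tgfbr2, the type II receptor that binds TGF-beta and recruits Tgfbr1, was at −1.25, −0.83 and −1.35 on exosome arrays and −0.49, −0.46 and −0.42 on untreated arrays. It fell by 0.68 (SE 0.16, adjusted p = 0.0192), and its second probe by 0.96 (SE 0.23, adjusted p = 0.0198). Under centring on the median the brighter Tgfbr2 probe differed by −0.45 (adjusted p = 0.0504), and with quantile normalization the second probe differed by −0.57 (adjusted p = 0.0791). Within each array, the difference between the changes of Tgfbr1 and Tgfbr2 was 1.34 (SE 0.30). A constant shift of an array cancels here, but a shift that moves with brightness need not. The pair, both in the middle bin by mean level, was chosen after its values were seen and carries no test.

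The promoters of this pair are shown because the genes moved in opposite directions. They run from 250 bases before to 50 after the gene's start in RefSeq's GRCr8 assembly. The motifs searched were the SMAD-binding CAGAC, the palindrome GTCTAGAC and the GC-rich GGCGCC, on both strands, and matches are in capitals. Tgfbr1 lies at chr5:66449148-66449447 (plus strand), with 1 GGCGCC 242 bases upstream of the start, and Tgfbr2 at chr8:124761420-124761719 (minus strand), with none of the motifs in this window.
Tgfbr1: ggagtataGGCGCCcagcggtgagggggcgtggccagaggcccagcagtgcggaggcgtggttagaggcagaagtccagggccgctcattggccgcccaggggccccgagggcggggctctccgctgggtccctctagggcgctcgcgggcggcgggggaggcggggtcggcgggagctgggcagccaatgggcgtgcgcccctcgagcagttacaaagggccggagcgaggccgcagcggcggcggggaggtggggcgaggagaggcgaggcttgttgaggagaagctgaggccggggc
Tgfbr2: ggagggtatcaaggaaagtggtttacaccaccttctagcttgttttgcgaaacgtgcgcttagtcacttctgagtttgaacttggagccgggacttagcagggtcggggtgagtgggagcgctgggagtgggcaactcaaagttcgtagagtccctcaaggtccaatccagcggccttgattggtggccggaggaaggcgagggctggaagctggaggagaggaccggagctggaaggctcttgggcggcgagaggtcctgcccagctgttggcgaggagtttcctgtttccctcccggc

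Across the table, GGCGCC was in 11.02% of 33469 promoters of this length and in 18.9% of those of tested genes. It was in 15 of the 40 promoters found for 38 genes of the family (37.5%). CAGAC was in 50.1% of all promoters, 49.2% of those of tested genes and 12 of the 40 (30.0%). GTCTAGAC was in 0.197% of all promoters and in 0 of the 40. The family's promoters had a median GC content of 64.2%, against 59.7% for tested genes and 51.7% for all, so these shares are descriptions and not sites.

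Bmpr1b, a type I BMP receptor (ALK6), was higher by 0.97 (SE 0.19, adjusted p = 0.0137). It was at −1.81, −2.42 and −1.97 on exosome arrays and at −2.84, −3.06 and −3.21 on untreated arrays, with no overlap. Bmpr1a, another type I BMP receptor, differed by 0.30 (SE 0.13, adjusted p = 0.0907), also without overlap. Bmpr2, a type II BMP receptor, differed by −0.23 (SE 0.30, adjusted p = 0.564).

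The activin receptors did not pass the test on this scale. The type I receptor Acvr1b (ALK4) differed by −0.61 (SE 0.20, adjusted p = 0.0520), and the type II receptors Acvr2a and Acvr2b by −0.49 (SE 0.22, adjusted p = 0.113) and 0.14 (SE 0.12, adjusted p = 0.361). Acvr1b passed with normexp at −0.447 (adjusted p = 0.0287), and Acvr2b with quantile normalization at 0.448 (adjusted p = 0.0491). Acvrl1, an endothelial type I receptor (ALK1) spotted 10 times per array, differed by −0.38 (SE 0.16, adjusted p = 0.0902). The co-receptor Tgfbr3, betaglycan, which presents TGF-beta2 and inhibin, differed by −0.00 (95% interval −0.35 to 0.35), and by 0.58 with quantile normalization. Acvr1 and Amhr2, the receptor for anti-Müllerian hormone, were above background on no array.

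Among the SMADs the inhibitory Smad7, which blocks type I receptors and is itself induced by the pathway, was higher. It was at 0.02, −0.16 and 0.18 on exosome arrays and at −0.26, −0.65 and −0.93 on untreated arrays. Smad7 rose by 0.63 (SE 0.20, adjusted p = 0.0424), without overlap, and passed under each of the 5 scalings. Its promoter at chr18:71263258-71263557 (plus strand) is shown because it held 2 matches to GGCGCC, at 96 and 36 bases upstream of the start, and none to CAGAC.
Smad7: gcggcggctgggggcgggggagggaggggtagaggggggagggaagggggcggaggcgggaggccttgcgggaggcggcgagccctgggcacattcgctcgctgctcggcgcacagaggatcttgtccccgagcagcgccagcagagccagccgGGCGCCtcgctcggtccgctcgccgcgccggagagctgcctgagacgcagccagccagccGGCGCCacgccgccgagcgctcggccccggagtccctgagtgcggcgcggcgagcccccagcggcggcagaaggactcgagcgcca

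Smad4, the partner shared by TGF-beta, activin and BMP SMADs, was at −4.29, −3.99 and −4.62 on exosome arrays and at −3.60, −3.27 and −3.28 on untreated arrays. It fell by 0.91 (SE 0.19, adjusted p = 0.0151). Smad2, which carries TGF-beta and activin signals, was at −4.19, −3.75 and −4.33 on exosome arrays and −3.76, −3.34 and −3.34 on untreated arrays. Smad2 fell by 0.61 (SE 0.20, adjusted p = 0.0496), and it was the 1 called gene of the 19 whose groups overlapped. Both calls were lost under quantile normalization, with −0.53 (adjusted p = 0.0507) for Smad4 and −0.23 for Smad2. The difference between the changes of Smad7 and Smad4 within arrays was 1.54 (SE 0.41), a pair chosen after its values were seen. Smad7 lies in the middle and Smad4 in the lowest bin by mean level, so the shift with brightness does not cancel between them.

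The BMP-regulated Smad5 differed by −0.40 (SE 0.15, adjusted p = 0.0675), without overlap, and Smad1 by 0.29 (SE 0.20, adjusted p = 0.274). Smad3 was above background on no array. Smad6 was not analysed here.

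Of the 9 tested binding proteins, 4 were lower and none was higher on this scale, where 29.2% of all genes were lower and 14.6% higher. The 4 include Nog, which entered the test through its untreated arrays alone, and Fstl1, whose 2 probes moved in opposite directions. At an unadjusted p below 0.05 limma gave 5 lower and 1 higher, with no share of all genes given here at that threshold. With quantile normalization 4 were lower and 1 was higher. Ltbp3, a latent TGF-beta binding protein, was at −3.23, −2.71 and −3.47 on exosome arrays and at −2.08, −1.95 and −1.87 on untreated arrays. It fell by 1.17 (SE 0.21, adjusted p = 0.0115), 2.25-fold, and passed under the 5 scalings and with each array left out. Ltbp1 differed by −0.69 (SE 0.25, adjusted p = 0.0630), without overlap, Ltbp2 by −0.38 (SE 0.18, adjusted p = 0.134) and Ltbp4 by −0.93 (SE 0.49, adjusted p = 0.164).

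Fstl3, a follistatin-like protein that binds activins, was at −2.63, −2.26 and −2.67 on exosome arrays and −1.79, −1.45 and −1.40 on untreated arrays. It fell by 0.97 (SE 0.17, adjusted p = 0.0114). Fst, follistatin itself, differed by 0.27 (SE 0.12, adjusted p = 0.110), with no overlap. The 2 probes of Fstl1, a secreted follistatin-like glycoprotein, moved in opposite directions. The brighter was at 0.63, 0.96 and 0.57 on exosome arrays and at 1.08, 1.38 and 1.60 on untreated arrays, and fell by 0.63 (SE 0.18, adjusted p = 0.0334). The other was at 1.01, 0.95 and 1.19 on exosome arrays and at 0.48, 0.45 and 0.32 on untreated arrays, and rose by 0.63 (SE 0.12, adjusted p = 0.0129). No direction can be given for Fstl1 as a gene, although its brighter probe counts it among the 13 lower ones.

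Nog encodes noggin, an antagonist that keeps BMPs from their receptors. It was above background on the 3 untreated arrays and on no exosome array, with measured levels of −6.12, −6.44 and −6.31 on exosome arrays and −5.36, −4.54 and −5.03 on untreated arrays. Set against the dimmest signals that counted as above background, Nog was 2.23-fold lower after exosomes on the 75th-percentile scale (limma adjusted p = 0.0114 for the measured levels). Because it entered the test through its untreated arrays alone, this p lends no support to the difference. The 2.23-fold is not a lower limit, because brighter probes also failed to count as above background. The second Tgfb2 probe, at −5.44, −5.86 and −5.68, counted on only 1 exosome array. The fitted difference of Nog was −0.75 with quantile normalization, −0.73 with the authors' deposited log2 values and −0.435 with normexp, each a smaller fall than 2.23-fold. The Nog promoter at chr10:74627452-74627751 (minus strand) is shown because it held both kinds of motif, a CAGAC 198 bases and a GGCGCC 51 bases upstream of the start.
Nog: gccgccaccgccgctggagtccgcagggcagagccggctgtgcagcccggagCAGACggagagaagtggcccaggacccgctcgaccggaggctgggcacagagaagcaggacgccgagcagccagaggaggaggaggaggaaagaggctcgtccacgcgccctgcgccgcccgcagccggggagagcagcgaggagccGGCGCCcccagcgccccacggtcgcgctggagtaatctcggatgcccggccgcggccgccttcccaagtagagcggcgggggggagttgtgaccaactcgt

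Grem1, gremlin, another BMP antagonist, also had probes that differed in sign. The brighter probe was at −3.93, −4.70 and −4.53 on exosome arrays, against −5.01, −4.98 and −4.89 on untreated arrays, a difference of 0.57 (SE 0.21, adjusted p = 0.0671). The dimmer was at −5.60, −5.50 and −5.98 on exosome arrays and −5.25, −4.86 and −4.71 on untreated arrays, and fell by 0.75 (SE 0.20, adjusted p = 0.0254). With quantile normalization the dimmer probe lost its call, at −0.22 (adjusted p = 0.262), and the brighter one passed, at 1.06 (adjusted p = 0.0188). Bmp1, a protease that cleaves procollagen and the antagonist chordin and is not a BMP ligand, differed by 0.02 (SE 0.13, adjusted p = 0.919).

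**Figure D2:**
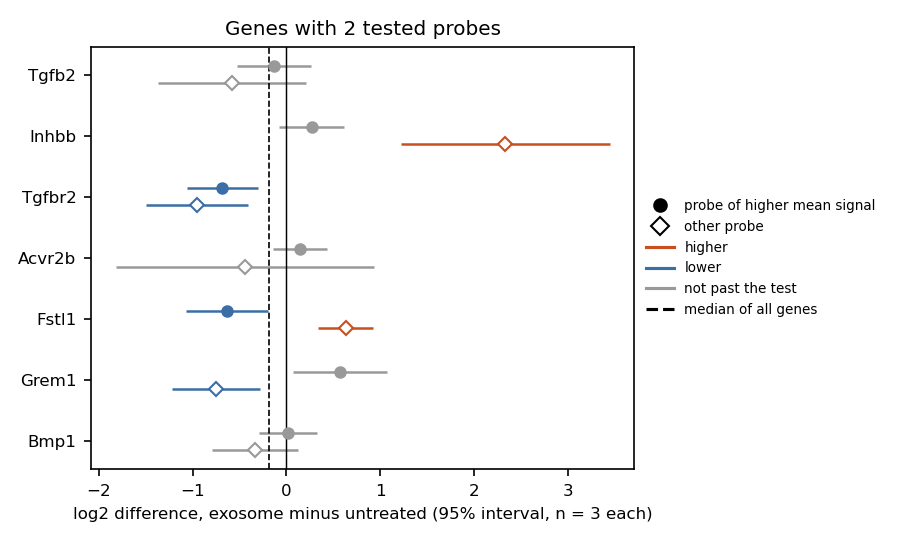
Log2 difference, exosome minus untreated, with its 95% interval (x axis) for the 7 genes with 2 tested probes (y axis); filled circles are the probe of higher mean signal and open diamonds the other probe, coloured by call, with the median of all genes as a dashed line. The probes of Fstl1 lie at −0.63 and 0.63, those of Grem1 at 0.57 and −0.75, and those of Inhbb at 0.27 and 2.34.

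Of the 7 genes with 2 tested probes, the pairs of Inhbb, Fstl1 and Grem1 differed within arrays by −2.07 (SE 0.56), −1.26 (SE 0.27) and 1.32 (SE 0.29), brighter minus other, with no overlap between groups. The Tgfbr2 pair differed by 0.27 (SE 0.11), with both probes lower. The second probes of Tgfb2 (−0.58, SE 0.33, adjusted p = 0.190), Acvr2b (−0.45, adjusted p = 0.553) and Bmp1 (−0.34, SE 0.19, adjusted p = 0.188) did not pass the test.

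The 4 target genes gave 1 rise and 2 falls. Id1, an inhibitor of basic helix-loop-helix factors and a direct target of BMP SMADs, was at 4.76, 4.49 and 4.92 on exosome arrays and at 4.11, 3.82 and 3.63 on untreated arrays. It rose by 0.87 (SE 0.18, adjusted p = 0.0145), without overlap, and by at least 0.87 under each of the 5 scalings. Its probe was spotted 10 times per array with a spot SD of 0.02 to 0.05, against an SD between arrays of 0.22 with exosomes and 0.25 without.

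Id2, of the same family, was at −0.61, −0.07 and −0.63 on exosome arrays and at 0.30, 0.51 and 0.65 on untreated arrays. It fell by 0.92 (SE 0.19, adjusted p = 0.0145), also without overlap. Id3 was at 3.42, 3.09 and 3.68 on exosome arrays and 3.50, 3.15 and 3.14 on untreated arrays, an overlapping difference of 0.13 (SE 0.19, adjusted p = 0.596). The difference between the changes of Id1 and Id2 within arrays was 1.79 (SE 0.39), a pair chosen after its values were seen. Tgfbi, a matrix protein induced by TGF-beta, was at 0.47, 0.67 and 0.33 on exosome arrays and at 1.19, 1.08 and 1.22 on untreated arrays, and fell by 0.67 (SE 0.13, adjusted p = 0.0130).

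The promoters of Id1 and Id2 are shown because these targets moved in opposite directions. Id1 lies at chr3:161671314-161671613 (plus strand), with 1 CAGAC 23 bases after the start, and Id2 at chr6:47470946-47471245 (minus strand), with none of the motifs in this window.
Id1: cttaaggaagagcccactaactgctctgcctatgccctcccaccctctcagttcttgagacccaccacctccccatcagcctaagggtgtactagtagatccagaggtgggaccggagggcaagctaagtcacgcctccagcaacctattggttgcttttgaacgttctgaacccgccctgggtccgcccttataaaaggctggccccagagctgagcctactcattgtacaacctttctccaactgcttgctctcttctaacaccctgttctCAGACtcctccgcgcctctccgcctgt
Id2: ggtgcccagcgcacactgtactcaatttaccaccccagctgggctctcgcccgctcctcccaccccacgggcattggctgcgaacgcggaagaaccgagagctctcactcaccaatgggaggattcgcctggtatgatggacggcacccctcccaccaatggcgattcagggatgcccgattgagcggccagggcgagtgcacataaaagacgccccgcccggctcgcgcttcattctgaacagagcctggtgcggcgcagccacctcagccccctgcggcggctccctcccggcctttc

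**Figure D3:**
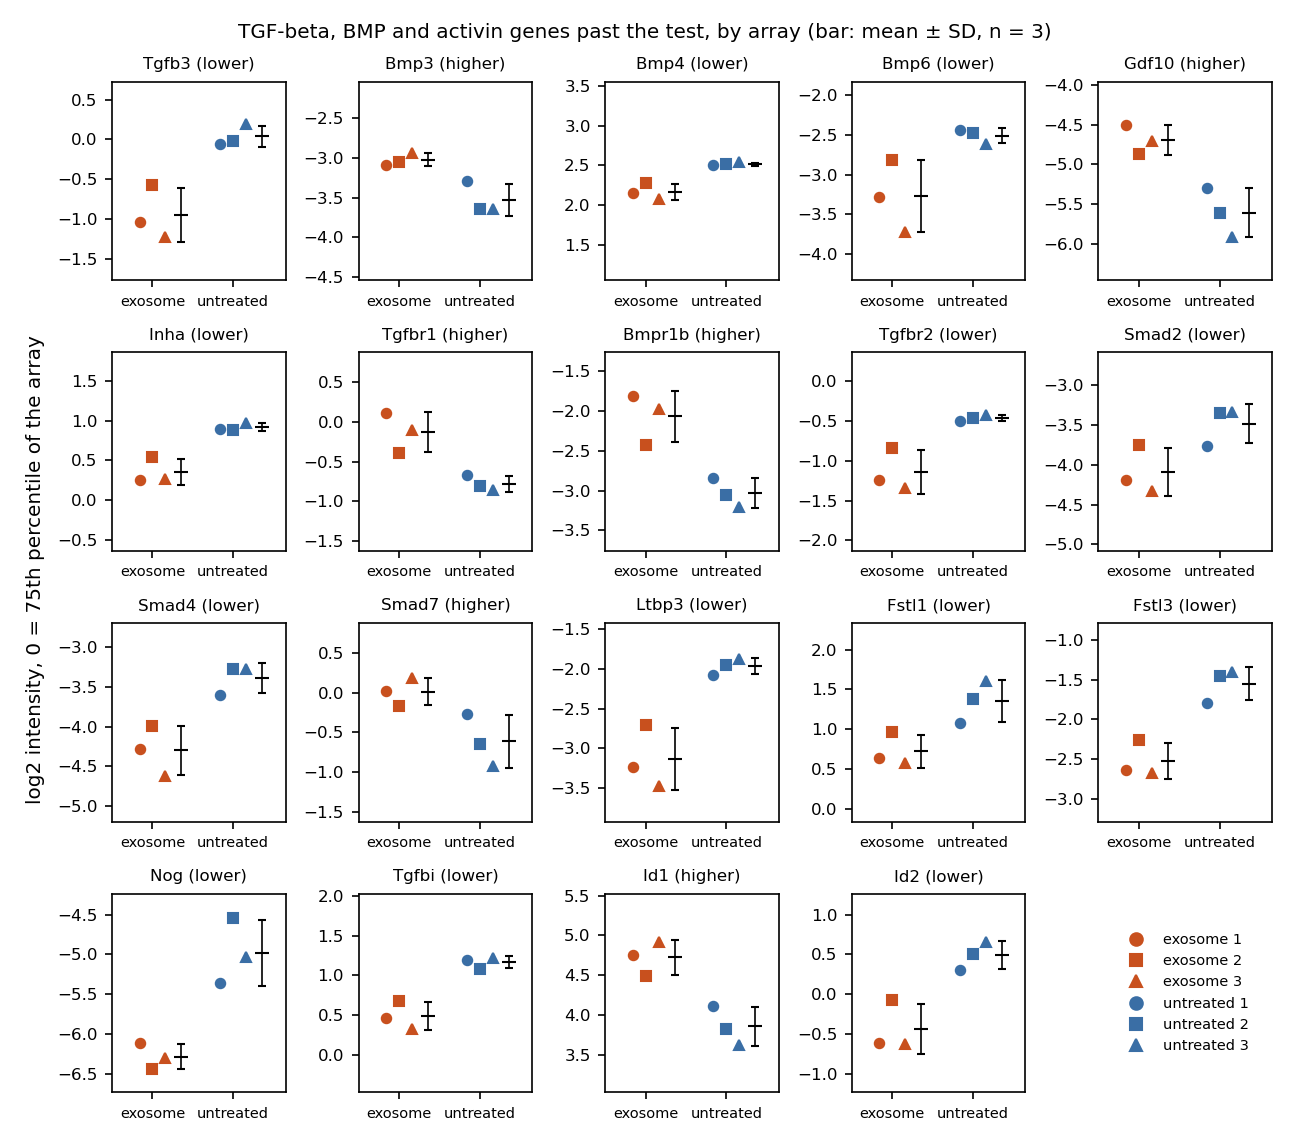
Level of the 19 genes past the test on each array (y axis, log2 intensity with 0 at the array's 75th percentile, each panel spanning the same range), exosome arrays left and untreated arrays right, with the mean ± SD of 3 arrays beside them. Only Smad2 among the 19 has overlapping groups, and exosome 3 is the lowest exosome array in 11 of the 13 lower genes. The order of the arrays was not counted over all genes.

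An array-to-array pattern recurred among the called genes of the family, and no such count over all genes is given here. Exosome 3 was the lowest exosome array in 11 of the 13 lower genes. Untreated 3 was the highest untreated array in 10 of these 13 and the lowest in 6 of the 6 higher genes. Without untreated 2, 17 of the 19 calls were lost, without untreated 3 it was 16, without exosome 1 it was 12 and without exosome 3 it was 7. Over all genes, calls fell from 1597 higher and 3208 lower to 134 and 820 without untreated 2. They fell to 211 and 997 without untreated 3, 377 and 1405 without exosome 1, and 767 and 2380 without exosome 3. The losses were therefore not particular to these 19 genes. The call on Ltbp3 passed with each array left out, with adjusted p between 0.0104 and 0.0496. Nog did too, but it entered the test through its untreated arrays alone, and its p-values lend no support.

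All 19 called genes kept their sign under the 5 scalings (75th percentile, quantile, median, normexp and the authors' deposited log2 values). The 5 are not independent checks. Over all genes the authors' values gave 2215 higher and 1782 lower, close to 2212 and 1766 with quantile normalization. Centring on the median moves each difference on the 75th-percentile scale by the same constant. Of the 19 genes, 10 passed in each scaling. The calls on Inha and on the brighter Fstl1 probe were lost with centring on the median. With scan as a random block, the calls on Bmp4, Bmp6, Smad2, Smad7 and the brighter Fstl1 probe were lost, and with no filter on dim probes those on the same 5 genes and Bmp3. The 10 were Tgfbr1, Bmpr1b, Smad7 and Id1 among the higher genes and Tgfb3, Ltbp3, Fstl3, Nog, Tgfbi and Id2 among the lower ones. Split by mean level over all genes, the highest of the 3 bins held 11 genes of the family, with 1 higher and 5 lower, where 24.4% of all genes were higher and 15.6% lower. The middle bin held 18, with 3 higher and 5 lower (15.4% and 33.4% of all genes), and the lowest 12, with 2 higher and 3 lower (3.91% and 38.7%).

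**Figure D4:**
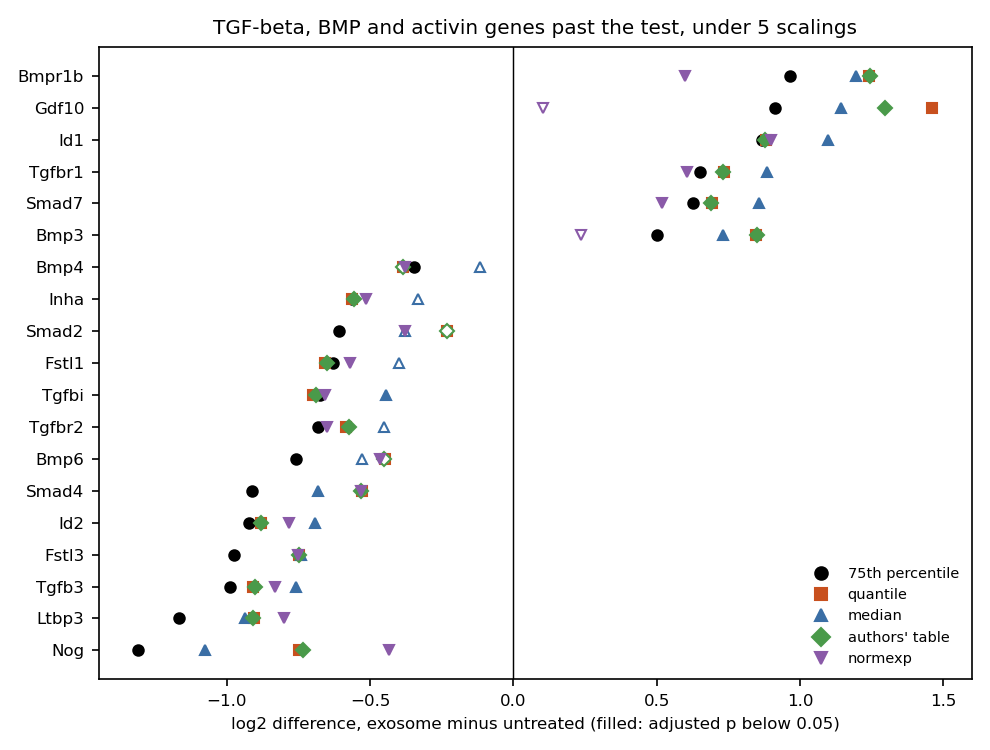
Log2 difference, exosome minus untreated (x axis), of the 19 genes past the test (y axis) under 5 scalings; filled symbols have an adjusted p below the threshold of 0.05 and open symbols do not. Symbols stay on one side of 0 for each gene, and the 10 genes from Bmpr1b to Nog named in the text are filled under each scaling.

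A further 100 genes of the pathway were listed, of which 85 had a probe and 68 were tested. Of the 68, 10 were higher (14.7%) and 22 lower (32.4%), near the 14.6% and 29.2% of all genes, with a median of −0.21. The 22 include Acvr1c and Sostdc1, which entered the test through their untreated arrays alone. Of 5 other ligands tested, 3 were lower, Bmp8a by −1.33 (SE 0.23, adjusted p = 0.0114), Gdf7 by −0.70 (SE 0.15) and the Nodal inhibitor Lefty2 by −0.68 (SE 0.14). Of 5 other receptors and co-receptors, 1 was higher and 4 lower. The BMP co-receptor Rgma rose by 0.95 (SE 0.24, adjusted p = 0.0238). The type I receptor Acvr1c (ALK7) was above background on no exosome array. Set against the dimmest signals above background it was 1.93-fold lower, which is not a lower limit. Acvr1c entered the test through its untreated arrays alone, so its adjusted p of 0.00983 lends no support.

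Intracellular regulators gave 3 higher and 1 lower of 15 tested. Smurf2, a ubiquitin ligase that Smad7 brings to the receptors, rose by 0.65 (SE 0.14, adjusted p = 0.0162), Tab1, a partner of the kinase TAK1, by 0.63 (SE 0.17) and the kinase Hipk2 by 0.58 (SE 0.12). Fkbp1a, which binds the type I receptor, fell by 0.67 (SE 0.17). Extracellular regulators gave 2 higher and 8 lower of 24. The BMP binder Bmper rose by 0.74 (SE 0.20). Lrrc32, which anchors latent TGF-beta at the cell surface, fell by 0.73 (SE 0.13, adjusted p = 0.0114). The BMP antagonist Sostdc1, above background on no exosome array, was 1.12-fold lower when set against the dimmest signals above background. That value is not a lower limit. Sostdc1 entered the test through its untreated arrays alone, so its call among the 8 lower lends no support.

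Other target genes gave 4 higher and 6 lower of 19 tested. Snai1, a transcriptional repressor induced by TGF-beta, rose by 1.17 (SE 0.28, adjusted p = 0.0207), and Id4 by 0.50 (SE 0.13). Cdkn1a, the cell-cycle inhibitor p21, fell by 0.75 (SE 0.11, adjusted p = 0.00987), and the collagen gene Col3a1 by 0.86 (SE 0.18). With quantile normalization this longer list gave 13 higher and 13 lower, and the calls on Gdf7, Lefty2 and Sostdc1 were lost.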

How the data were processed

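Total RNA of 3 exosome and 3 untreated samples was labelled with Cy3 and hybridised to 1-colour Agilent arrays, read with Feature Extraction 11.0.1.1 per the submitters' processing notes. The deposited scanner files hold background-subtracted intensity per spot (44254 spots, 1377 of them controls) and flags for spots above background, saturated or outlying, per the file headers. The authors' deposited table holds log2 values whose 6 arrays share a median of 5.69 and a maximum of 16.99. How they were scaled is not given in the sources used here, but their results lay close to those with quantile normalization. The main values are log2 processed intensity minus each array's 75th percentile. Spots marked as outliers, 388 to 572 per array, were dropped, and each probe's remaining spots were averaged. A probe was tested if well above background on at least 3 of 6 arrays (20433 of 30367 probes), with limma 3.58.1 in R 4.3.3 and Benjamini-Hochberg adjustment over all tested probes. A gene takes its tested probe of highest mean signal. The test was checked on simulated data.

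Symbols come from RefSeq accessions in the GRCr8 gene table (17997 probes, 15162 genes matched). Normexp (offset 50) used median spot and background intensities, in place of the planned mean spot intensity. The family's members and all lists were chosen with earlier results of these data known. Genes outside the family were named by rule, up to 3 in each direction per list with the smallest p. Alternatives were 4 other scalings, other filters, the mean of probes, a 2-fold minimum, scan as a random block, a replicate block and leaving out each array. The number of arrays limits the precision.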

Additional observations from a re-analysis of the deposited data

How the results depend on the processing

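The tested family gave 6 genes higher and 13 lower in exosome-treated cells, and the other pathway genes 10 higher and 22 lower. The family gave 10 higher and 9 lower with quantile normalization, 10 and 10 with the authors' deposited log2 values, 12 and 7 with centring on the median, 4 and 9 with no filter on dim probes, and 0 and 2 with a 2-fold minimum. All genes moved alike, from 1597 higher and 3208 lower to 2212 and 1766 with quantile normalization and 2215 and 1782 with the authors' values. Centring on the median gave 2754 and 1856 over all genes, and no filter 864 and 2584 of 15162. The other pathway genes gave 17 higher with centring on the median, 5 with no filter, 6 with the mean of a gene's probes and 1 with the 2-fold minimum, and 13 lower with quantile normalization and 5 with the 2-fold minimum. Leaving out each array in turn gave 0 to 8 higher and 2 to 17 lower genes of the family, and 0 to 14 higher and 5 to 21 lower of the other pathway genes. Over all genes, these fits gave 134 to 1724 higher and 820 to 3294 lower. Without untreated 2 and without untreated 3 the limma count of higher family genes was 0, with 6 and 5 at an unadjusted p below 0.05. No share over all genes is given here for an unadjusted p or for the 2-fold minimum.

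Same-numbered samples did not deviate together (correlations of −0.09, −0.03 and −0.02). With 3 arrays per group this check cannot exclude that the numbers pair the samples, and the labels do not say. With a replicate block the family gave 4 higher and 10 lower and the other pathway genes 6 higher and 22 lower. With scan as a random block, where 1 group lies in each scan, the family gave 5 higher and 9 lower. Over all genes, the replicate block gave 768 higher and 2409 lower, and the scan block 1188 and 2709.

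Signs turned for 10 genes, and no turned value passed the test. Tgfb2 differed by 0.0771 with quantile normalization, 0.0776 with the authors' values and 0.10 with the median, Bmp7 by −0.0654 with normexp, and Acvr2a by 0.0466 with quantile normalization and 0.0421 with the authors' values. Bmpr2 differed by 0.14 with quantile normalization and the authors' values and 0.00571 with the median. Tgfbr3 differed by 0.58 with quantile normalization and the authors' values, 0.23 with the median and 0.00239 with scan as a random block. Bmp1 differed by −0.0240 with quantile normalization and −0.0237 with the authors' values. The mean of a gene's probes was −0.15 for Acvr2b, 0.00123 for Fstl1, which was called lower by its brighter probe, −0.0927 for Grem1 and −0.16 for Bmp1. With each array left out, Bmpr2 ranged from −0.44 to 0.12, Tgfbr3 from −0.10 to 0.0872, Bmp1 from −0.0567 to 0.10 and Id3 from −0.00876 to 0.29. The cause was not tested. Fewer samples enter each fit that leaves out an array, and dim signal limits Nog, Gdf10, Acvr1c and Sostdc1.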
